A study of Mus musculus with 12 samples.

Results

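Cxcl10, Ubd, Igtp, Gbp6 and Gzmb were followed through RNA sequencing of mouse aorta. These 5 genes were taken by symbol from a table of 3534 genes per library, and were chosen with their FPKM (fragments per kilobase of exon, scaled to library depth) in these libraries known. All their values below are therefore descriptions without a test. The study has 4 groups with 3 files each, and diets were given for 12 weeks. WT animals ate a normal diet. HFD, HAPN and HSAPN animals ate a high-fat diet with 60% of its energy from fat, and the labels give their genotype as WT in HFD and HAPN and as APPL1 knockdown in HSAPN. The sources used here do not give what sets HAPN apart from HFD, or how the knockdown was made. HFD replicates 1 and 2 hold the same values in every gene and enter once (called HFD 1=2 below), so the distinct libraries number 11, with 3 in each group except HFD, which has 2. Nothing in the labels says whether replicates came from separate animals or pools, so p-values measure only the spread between these samples.

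Interferon gamma is made mainly by activated T cells and natural killer (NK) cells. It binds a receptor on most cell types and switches on genes with gamma-activated sites (GAS), among them the transcription factor gene Irf1, which acts on interferon-stimulated response elements (ISRE). Cxcl10 encodes a chemokine that draws T and NK cells carrying CXCR3. Ubd encodes FAT10, a ubiquitin-like modifier, and Igtp and Gbp6 encode interferon-inducible GTPases that act against microbes inside cells. Gzmb encodes granzyme B, a protease of cytotoxic granules, and is a product of the killer cells rather than a direct interferon target. In the vessel wall, interferon gamma from infiltrating lymphocytes is known to act on smooth muscle, endothelium and macrophages.

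The 5 genes stood highest in the same single library, HAPN replicate 3, and next highest in HSAPN replicate 2. HAPN replicates 1 and 2 lay within the range of the WT and HFD libraries for Gzmb and Cxcl10, and HAPN replicate 1 had the lowest Ubd value of all. The highest of 11 libraries was HAPN replicate 3 in 7.47% of the 1659 genes tested, and this order of first and second place held for 3.32% of them. Since the genes were chosen on these values, nothing is read from those shares.

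Because the 5 genes were high in the same libraries, the sequence before their start sites is shown with the interferon and NF-kappa-B motifs it holds. Of the 5 genes, 4 were in the RefSeq promoter table (GRCm38.p6), and Gbp6 was not. The 250 bases before each RefSeq start are printed 5′ to 3′ on the gene's strand, with motif matches in capitals. They are chr5:92348890-92349139 (minus strand) for Cxcl10, chr17:37193642-37193891 (plus) for Ubd, chr11:58199306-58199555 (plus) for Igtp and chr14:56262335-56262584 (minus) for Gzmb.
Cxcl10: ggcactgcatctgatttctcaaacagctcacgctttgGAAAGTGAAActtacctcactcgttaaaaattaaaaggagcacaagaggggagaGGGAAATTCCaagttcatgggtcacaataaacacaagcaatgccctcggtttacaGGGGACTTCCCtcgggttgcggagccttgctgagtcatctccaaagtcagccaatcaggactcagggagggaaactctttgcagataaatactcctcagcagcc
Ubd: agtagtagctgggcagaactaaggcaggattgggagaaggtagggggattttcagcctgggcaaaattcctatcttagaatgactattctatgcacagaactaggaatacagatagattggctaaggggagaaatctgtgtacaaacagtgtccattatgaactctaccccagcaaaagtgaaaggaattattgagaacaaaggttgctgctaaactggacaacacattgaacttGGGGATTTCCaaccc
Igtp: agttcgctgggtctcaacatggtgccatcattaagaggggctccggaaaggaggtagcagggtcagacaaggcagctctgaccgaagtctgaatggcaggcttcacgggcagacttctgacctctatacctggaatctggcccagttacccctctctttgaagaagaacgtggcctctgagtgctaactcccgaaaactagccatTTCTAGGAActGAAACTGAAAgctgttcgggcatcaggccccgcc
Gzmb: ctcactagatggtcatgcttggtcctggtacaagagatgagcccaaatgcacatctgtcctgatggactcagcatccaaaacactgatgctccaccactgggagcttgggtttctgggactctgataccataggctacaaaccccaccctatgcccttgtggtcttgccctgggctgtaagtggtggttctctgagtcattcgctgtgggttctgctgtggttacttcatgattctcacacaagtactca

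Both strands were searched for 3 motifs: the ISRE core (GAAA, any 2 bases, GAAA), the GAS element TTCNNNGAA, and the NF-kappa-B consensus. An ISRE core lay 213 to 204 bases before the start of Cxcl10 and 34 to 25 bases before that of Igtp. Igtp also held a GAS element, 45 to 37 bases before its start. Cxcl10 held NF-kappa-B matches at 159 to 150 bases and at 104 to 94 bases, where 3 matches overlap. Ubd held 1 NF-kappa-B match, 15 to 6 bases before its start, and Gzmb held none of the 3 motifs. Among 32851 promoters, 2.98% held the ISRE core, 7.02% the GAS element and 7.25% the NF-kappa-B consensus in the same window. A match describes letters and not a bound site. The RefSeq start of Gzmb lies 74 bases from the GENCODE M21 start, while those of the other 3 agree.

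Cxcl10 (ENSMUSG00000034855.13, GRCm38 chromosome 5, 92346638 to 92348889) was measured at 0.152, 0.621 and 1.28 FPKM in the WT libraries. It stood at 0.893 FPKM in library HFD 1=2 and at 2.22 FPKM in HFD replicate 3. The HAPN libraries gave 0.356, 1.22 and 41.8 FPKM. Within HAPN, replicate 3 therefore stood far above a pair of libraries that lay inside the WT range. The HSAPN libraries gave 4.45, 15.1 and 1.36 FPKM, each above every WT library. In reads, Cxcl10 ran from 6 in WT replicate 1 to 1478 in HAPN replicate 3. HAPN replicate 3 was 2.76 times the next library, HSAPN replicate 2, and 33.5 times the median of the other 10 libraries.

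Ubd (ENSMUSG00000035186.6, chromosome 17, 37193892 to 37196095) had the fewest reads. The WT libraries gave 0.184, 0.721 and 1.01 FPKM, from 3, 12 and 16 reads, and both HFD libraries had 15 reads, or 1.01 and 0.969 FPKM. In HAPN replicate 1 Ubd had 0 reads, which allows up to 0.199 FPKM (3 reads), and in HAPN replicate 2 it had 6 reads (0.362 FPKM). HAPN replicate 3 held 547 reads, or 37.5 FPKM. Ubd thus had both its lowest and its highest value in the HAPN group. The HSAPN libraries gave 1.09, 3.55 and 0.388 FPKM, overlapping WT and HFD. The ratio of HAPN replicate 3 to the next library was 10.5, the widest gap of the 5 genes. Counting intervals were broad at the low end, from 0.0380 to 0.538 FPKM for the 3 reads of WT replicate 1 (95% exact Poisson). Such intervals and the limit at 0 cover counting error only.

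Igtp (ENSMUSG00000078853.8, chromosome 11, 58199556 to 58207591) was the most abundant of the 5 per length of exon. Its level was 5.51, 7.47 and 13.7 FPKM in WT and 16.4 and 17.1 FPKM in HFD. In HAPN it was 11.5, 19.6 and 108.0 FPKM, and in HSAPN 27.5, 40.8 and 19.5 FPKM. All 3 HSAPN libraries lay above both HFD libraries, which in turn lay above all WT libraries. HAPN spanned the HFD range, with 1 library below it and 2 above. With 195 to 3424 reads per library, Igtp was also the member measured most precisely. HAPN replicate 3 stood 2.64 times above HSAPN replicate 2 and 6.44 times above the median of the other 10 libraries.

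Gbp6 (ENSMUSG00000104713.4, chromosome 5, 105270702 to 105293698) is a guanylate-binding protein gene with low FPKM throughout. It gave 0.173, 0.282 and 0.938 FPKM in WT, and 0.961 and 0.707 FPKM in HFD. HAPN libraries stood at 0.683, 1.07 and 5.12 FPKM and HSAPN libraries at 1.24, 2.31 and 0.870 FPKM. WT replicate 3 fell inside the HFD and HSAPN ranges, so those groups overlapped. HAPN replicate 3 was 2.22 times HSAPN replicate 2 and 5.66 times the median of the other 10 libraries. Of its 5954 exonic bases, 1726 (29.0%) are shared with the gene model Gm43302 on the same strand, and reads of related guanylate-binding protein genes may be divided among copies, so its level is uncertain. Igtp shares 162 exonic bases with Irgm2 on its strand, and Cxcl10 shares 133 with Art3 on the opposite strand. The sources used here do not say how the counting treated strand and shared bases.

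Gzmb (ENSMUSG00000015437.5, chromosome 14, 56258838 to 56262260) was the only 1 of the 5 with a WT SD above its WT mean. WT replicate 3 was the highest WT library for all 5 genes. WT replicates 1 and 2 gave 0.199 and 0.584 FPKM, from 5 and 15 reads, while WT replicate 3 gave 4.51 FPKM from 110 reads. HFD libraries stood at 2.01 and 1.38 FPKM, inside the WT range. HAPN libraries gave 1.16, 3.64 and 30.5 FPKM, and HSAPN libraries 3.59, 4.60 and 3.23 FPKM. The second place of HSAPN replicate 2 rested on a small gap here, since its 4.60 FPKM (95% counting interval 3.81 to 5.52) covers the 4.51 FPKM of WT replicate 3. HAPN replicate 3 was 6.63 times HSAPN replicate 2 and 11.6 times the median of the other 10 libraries.

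**Figure D1:**
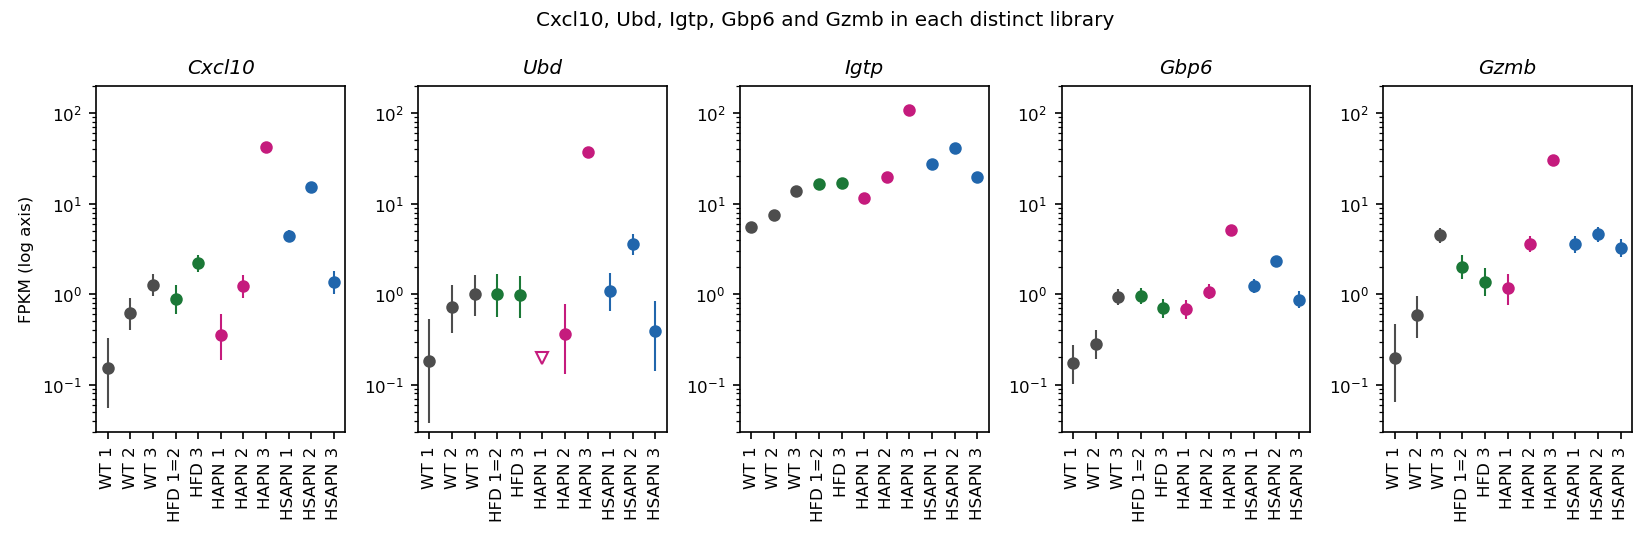
FPKM of each gene (log axis) in the 11 distinct libraries, coloured by group (WT grey, HFD green, HAPN magenta, HSAPN blue). Vertical lines are 95% exact Poisson intervals of the reads, hidden where shorter than the point, the open triangle marks the limit of 0.199 FPKM for 0 reads. In every panel the highest point is HAPN replicate 3.

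HAPN replicate 3 had a gap of at least 2-fold to the next library in 21 of the 1659 genes tested (1.27%), and those 21 included the 5 genes. The gap was uneven among them. It was 10.5-fold for Ubd and 6.63-fold for Gzmb, but 2.22 to 2.76-fold for Gbp6, Igtp and Cxcl10. HSAPN replicate 2 ordered them differently. Relative to the mean of HSAPN replicates 1 and 3, Cxcl10 was 5.21 times and Ubd 4.79 times higher there, against 2.19 for Gbp6, 1.74 for Igtp and 1.35 for Gzmb. Gzmb thus had the second widest gap of the 5 in HAPN replicate 3 and the smallest ratio in HSAPN replicate 2.

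At the level of groups, HAPN had the highest mean FPKM of all 5 genes and HSAPN the second, with a spread in HAPN larger than its mean. Cxcl10 averaged 14.5 ± 23.7 FPKM in HAPN (SD, n = 3), 6.98 ± 7.23 in HSAPN (n = 3), 1.55 ± 0.935 in HFD (n = 2) and 0.684 ± 0.566 in WT (n = 3). Ubd averaged 12.6 ± 21.5, 1.68 ± 1.66, 0.991 ± 0.0313 and 0.639 ± 0.419 FPKM in the same order of groups. Igtp averaged 46.4 ± 53.5, 29.3 ± 10.8, 16.8 ± 0.438 and 8.90 ± 4.29 FPKM. The order of the groups was the same for these 3 genes, and the ranges of HAPN and HSAPN overlapped in each. Gbp6 averaged 2.29 ± 2.46, 1.47 ± 0.747, 0.834 ± 0.180 and 0.464 ± 0.414 FPKM. Gzmb averaged 11.8 ± 16.3 FPKM in HAPN and 3.81 ± 0.713 in HSAPN, while HFD (1.70 ± 0.447) and WT (1.76 ± 2.38) were close and overlapped.

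Without HAPN replicate 3, the HAPN mean fell to 0.789 ± 0.612 FPKM for Cxcl10, 0.181 ± 0.256 for Ubd, 15.6 ± 5.75 for Igtp, 0.874 ± 0.270 for Gbp6 and 2.40 ± 1.75 for Gzmb (n = 2). HSAPN then had the highest mean of all 5 genes. On the log2(FPKM + 1) scale, where the added 1 weighs on low values, HAPN exceeded HFD by 1.03 for Cxcl10, 0.91 for Ubd, 0.78 for Igtp, 0.60 for Gbp6 and 1.35 for Gzmb. Leaving out HAPN replicate 3 changed these differences to -0.51, -0.77, -0.15, 0.03 and 0.24. The direction of the HAPN difference from HFD thus turned for 3 of the genes with 1 library. Leaving out HAPN replicate 1 instead gave 1.98, 1.86, 1.42, 0.96 and 2.17. With a pseudocount of 0.1 in place of 1, the Ubd difference was 0.14 in place of 0.91.

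The knockdown group differed from HAPN in the same library-dependent way. HSAPN minus HAPN was 0.23 for Cxcl10, -0.66 for Ubd, -0.07 for Igtp, -0.21 for Gbp6 and -0.51 for Gzmb on the log2(FPKM + 1) scale. Without HAPN replicate 3 it was positive for all 5 genes, at 1.77, 1.02, 0.86, 0.36 and 0.59. Without HAPN replicate 1 it was negative for all 5, at -0.72, -1.61, -0.71, -0.57 and -1.34, and these were the lowest values with any 1 library left out. The Cxcl10 difference also turned negative without HSAPN replicate 2 (-0.49) or HAPN replicate 2 (-0.36), and that of Igtp turned positive without HSAPN replicate 3 (0.18). With a pseudocount of 0.1 the Ubd difference was 0.10 and that of Cxcl10 was 0.67. For Cxcl10 the mean FPKM was higher in HAPN while the mean log2 value was higher in HSAPN. The groups did not separate in any of the 5 genes (0 of 5 higher against 9.95% of all genes tested, and 0 of 5 lower against 7.53%).

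**Figure D2:**
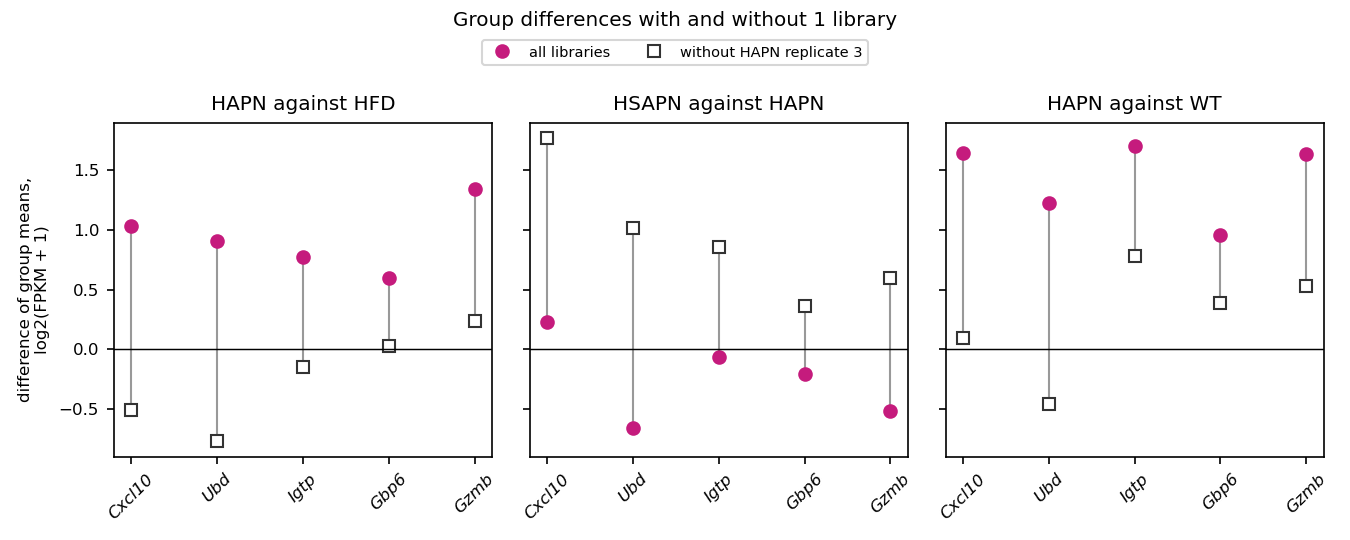
Difference of group means on the log2(FPKM + 1) scale for the 5 genes in 3 comparisons that involve HAPN, with all libraries (filled circles) and without HAPN replicate 3 (open squares). In HSAPN against HAPN the values lie between -0.66 and 0.23 with all libraries and between 0.36 and 1.77 without that library.

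Comparisons that leave HAPN out do not touch that library. HSAPN exceeded HFD by 1.26 for Cxcl10, 0.25 for Ubd, 0.71 for Igtp, 0.39 for Gbp6 and 0.83 for Gzmb. Without HSAPN replicate 2 these were 0.54, -0.22, 0.45, 0.16 and 0.72, and without HSAPN replicate 3 Cxcl10 was at 1.93 and Ubd at 0.63. Gbp6 was at 0.66 with a pseudocount of 0.1. All HSAPN libraries lay above both HFD libraries in 2 of 5 genes, Igtp and Gzmb, where 5.61% of all genes tested did, and 0 of 5 lay below (14.2% of all genes). HSAPN exceeded WT by 1.87, 0.56, 1.64, 0.75 and 1.13 in the same order of genes. The groups were apart in 2 of 5, Cxcl10 (at the closest 1.36 against 1.28 FPKM) and Igtp, against 10.3% of all genes, and 0 of 5 lower (19% of all genes). Without HSAPN replicate 2, Cxcl10 was at 1.15 and Ubd at 0.09, and Ubd was at 0.95 without HSAPN replicate 3 and 0.35 without WT replicate 1. Gzmb was at 0.69 without WT replicate 1 and 1.79 without WT replicate 3. With a pseudocount of 0.1, Cxcl10 was at 2.89, Ubd at 1.01, Gbp6 at 1.62 and Gzmb at 1.98. HFD exceeded WT by 0.61, 0.32, 0.93, 0.36 and 0.29, with the groups apart in 1 of 5, Igtp, against 12.1%, and 0 of 5 lower against 7.17%. Cxcl10 was at 0.22 without HFD replicate 3, 0.99 without library HFD 1=2 and 0.36 without WT replicate 1. Ubd was at 0.10 without WT replicate 1 and 0.48 without WT replicate 3, and Gbp6 at 0.21 and 0.58. The Gzmb difference of HFD from WT was -0.14, 0.06 and 0.96 without WT replicates 1, 2 and 3, 0.12 without library HFD 1=2 and 0.46 without HFD replicate 3. With a pseudocount of 0.1, Cxcl10 was at 1.27, Ubd at 0.77, Gbp6 at 0.96 and Gzmb at 0.85. HAPN exceeded WT by 1.64, 1.23, 1.70, 0.96 and 1.64, and by 0.10, -0.46, 0.78, 0.38 and 0.53 without HAPN replicate 3. Without HAPN replicate 1, Cxcl10 was at 2.59, Ubd at 2.18 and Gzmb at 2.47, Ubd was at 1.95 without HAPN replicate 2, and Gbp6 was at 1.82 with a pseudocount of 0.1. HAPN libraries overlapped WT and HFD in all 5 genes (against WT, 7.11% of all genes were apart and higher and 20.4% apart and lower; against HFD, 6.51% and 19.8%). These comparisons share groups and are not independent of each other. The members were picked on these same values, so the counts describe them only.

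The other genes of the response were taken from 8 lists of 200 genes, of which 24 were in the table and 20 passed the filter of at least 1 FPKM in at least 3 libraries. In limma with Benjamini-Hochberg adjustment over all 1659 genes, 0 of the 20 passed an adjusted p of 0.05 in any of the 6 comparisons. Among all genes, 0% passed in HFD against WT, HSAPN against HFD, HAPN against WT and HSAPN against WT, 0.181% in HAPN against HFD and 0.121% in HSAPN against HAPN. At an unadjusted p under 0.05 there were 1 of 20 list genes in HFD against WT, 5 in HAPN against WT and 6 in HSAPN against WT (11.4%, 22.2% and 21.7% of all genes), and 0 in the other 3 comparisons. The granzyme gene Gzmm was among the 5 and the 6 and was lower than in WT (log2 difference -0.70 in HAPN and -0.64 in HSAPN). The others were higher than in WT. Limma-voom on recovered reads also called 0 list genes in each comparison. It gave 1, 5 and 5 at an unadjusted p under 0.05 in HFD, HAPN and HSAPN against WT. With WT replicate 3 left out, limma called 2 list genes in HSAPN against WT, where 10.1% of 1617 genes passed. They were Ube2l6, the conjugating enzyme of the ISG15 pathway (log2 difference 1.19, SE 0.293, limma adjusted p = 0.0427), and Ifit2, an interferon-induced RNA-binding protein gene (1.38, SE 0.354, 0.0472). With all libraries both had a limma adjusted p of 0.168.

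The signalling list held 3 genes in the table. Ifng, the ligand, was barely detected, at 0 to 0.396 FPKM in 10 libraries and 1.28 FPKM in HAPN replicate 3. Irf1, a transcription factor that carries the interferon signal, stood at 16.0, 17.5 and 25.5 FPKM in WT and 22.9 and 31.6 FPKM in HFD. It reached 22.4, 32.1 and 68.0 FPKM in HAPN and 37.7, 37.6 and 27.7 FPKM in HSAPN. Batf2, an interferon-inducible factor of macrophages, was 5.89 FPKM in HAPN replicate 3 and at most 2.40 FPKM elsewhere. All 3 were highest in HAPN replicate 3. The second library was HSAPN replicate 2 for Ifng and Batf2 and HSAPN replicate 1 for Irf1, by a small margin.

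The 5 other interferon-inducible GTPase genes were Gbp4, Gbp5, Gbp8, Iigp1 and Tgtp1, and 4 of them peaked in HAPN replicate 3. Gbp4 gave 1.38, 2.05 and 6.77 FPKM in WT, 6.47 and 6.24 in HFD, 4.67, 8.19 and 46.6 in HAPN, and 13.9, 15.2 and 8.13 in HSAPN. Iigp1, an immunity-related GTPase, was nearly as high in HSAPN replicate 2 (39.6 FPKM) as in HAPN replicate 3 (43.4 FPKM), against 4.83 to 21.6 FPKM in the other 9 libraries. Tgtp1 reached 5.64 and 5.63 FPKM in these same libraries, and reads of its near-identical copy Tgtp2 may be counted with it. Gbp5 was 12.1 and Gbp8 12.4 FPKM in HAPN replicate 3, next to 5.30 and 6.01 FPKM in HSAPN replicate 2. As a list, the GTPase genes were higher in HAPN than in HFD in 5 of 5 (median log2 0.59, against -0.24 over all genes), and in 0 of 5 without HAPN replicate 3 (median -0.10 against -0.23). They were higher in HSAPN than in HFD in 5 of 5 (median 0.82, against -0.18 over all genes). Of all genes tested, 24.9% were higher in HAPN than in HFD (25.8% without HAPN replicate 3) and 27.1% in HSAPN than in HFD.

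Chemokine genes of killer cell traffic were also high in HAPN replicate 3. Cxcl11, which shares the receptor CXCR3 with Cxcl10, was 1.24 FPKM in HAPN replicate 3 and 0 to 0.120 FPKM elsewhere. Ccl4 was 20.9 FPKM there against 0.0934 to 3.69 FPKM in the other libraries. Ccl3 was 10.7 against at most 4.22 FPKM and Ccl5, a product of memory T and NK cells, 48.5 against at most 27.7 FPKM. All 4 genes of this list in the table were highest in HAPN replicate 3.

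Of the cytotoxic granule genes, 4 of 5 peaked there as well. Prf1, which encodes the pore former perforin, was 0.0663, 0.195 and 2.37 FPKM in WT and 0.827 and 1.09 in HFD. It was 0.286, 1.61 and 6.04 FPKM in HAPN and 2.19, 2.51 and 1.89 FPKM in HSAPN. Nkg7, a granule membrane gene, followed the same order within WT (1.63, 2.57 and 17.8 FPKM) and reached 42.8 FPKM in HAPN replicate 3. WT replicate 3 was thus raised in Gzmb, Prf1 and Nkg7 relative to the other WT libraries. It was also the highest WT library for Cxcl10, Ubd, Igtp and Gbp6. Gzmk was 4.82 FPKM in HAPN replicate 3 and at most 1.86 elsewhere, while the granzyme gene Gzmm was 0.823 FPKM there and highest in WT replicate 2 (2.89 FPKM). Fasl, the death ligand of killer cells, was 2.57 FPKM in HAPN replicate 3 and at most 0.956 FPKM elsewhere.

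Of 50 listed genes responding mainly to type I interferon, 4 were in the table, and 0 of the 4 peaked in HAPN replicate 3. Over all genes tested 7.47% peaked there, so this count does not set these genes apart. Ifit2 was 5.83 FPKM in that library, below HSAPN replicates 1 and 2 (7.71 and 11.05 FPKM). Ifi27 was lowest in HAPN replicate 1 (53.7 FPKM) and stood at 73.7 FPKM in HAPN replicate 3. Ifi27l2a was highest in library HFD 1=2, at 516 FPKM against 54.2 to 207 FPKM elsewhere. Ube2l6 was 42.0 FPKM in HAPN replicate 3, close to the 43.2 and 44.2 FPKM of HSAPN replicates 2 and 1. Of 2 other response genes, Ifi205 peaked in HAPN replicate 3 (4.23 FPKM, against at most 3.12) and Il15ra, an interleukin 15 receptor chain, in library HFD 1=2 (5.32 FPKM). None of the 26 listed genes of antigen processing and presentation was in the table. Over the 24 list genes in the table, 16 were highest in HAPN replicate 3 and 3 in HSAPN replicate 2.

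Over the 20 tested list genes, the groups moved as follows. HAPN was higher than HFD in 14 (median log2 0.47, against -0.24 over all genes), but in 1 without HAPN replicate 3 (median -0.22 against -0.23). HSAPN was higher than HAPN in 11 (median 0.09 against 0.03), and in all 20 without HAPN replicate 3 (median 0.76 against 0.03). HSAPN was higher than WT in 19 (median 0.93 against -0.12) and HFD higher than WT in 19 (0.48 against 0.07). HAPN was higher than WT in 16 (median 0.80 against -0.17), and in 14 without HAPN replicate 3 (0.18 against -0.16). HSAPN was higher than HFD in 15 (median 0.35 against -0.18). Of all genes tested, 24.9% were higher in HAPN than in HFD (25.8% without HAPN replicate 3). The share was 53.5% in HSAPN against HAPN with or without that library, 42.3% in HSAPN against WT and 57.6% in HFD against WT. It was 38% in HAPN against WT (37.4% without HAPN replicate 3) and 27.1% in HSAPN against HFD. Median-ratio scaling raised the median of all genes by 0.20 in HAPN against HFD, by 0.16 in HSAPN against HFD and by 0.13 in HAPN against WT. The 5 genes kept the direction of each of their 30 group differences under that scaling.

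**Figure D3:**
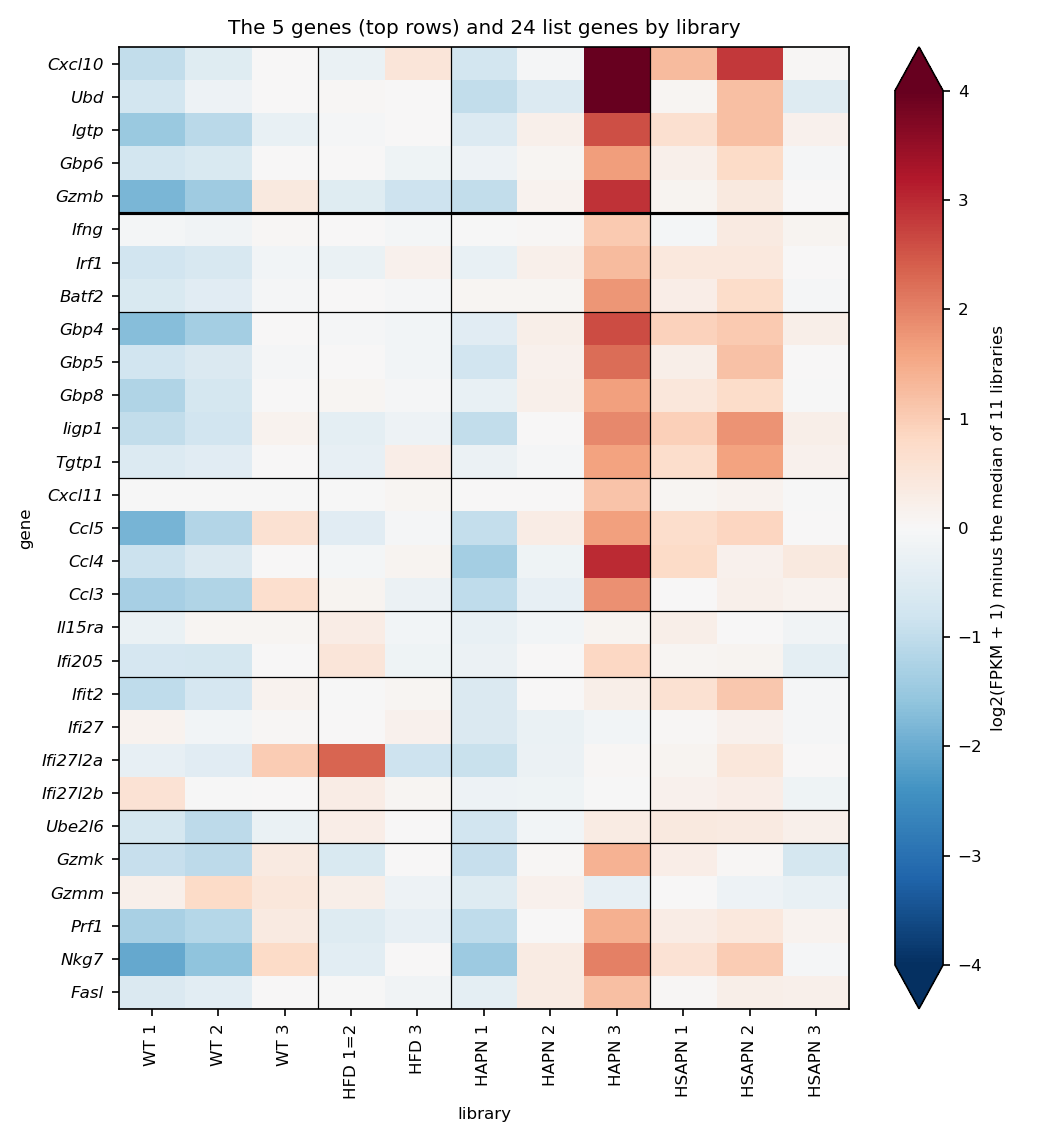
Log2(FPKM + 1) minus its median over the 11 libraries, for the 5 genes (above the thick line) and the 24 list genes in the table. Thin lines divide the lists, which are from top to bottom signalling genes, GTPases, chemokines, other response genes, type I genes, Ube2l6 and cytotoxic genes. Red is above and blue below the median, and the column of HAPN replicate 3 holds the highest value in 16 of the 24 list genes.

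In bulk tissue, more cells of a type and more RNA per cell cannot be told apart. Summed lymphocyte markers were also highest in HAPN replicate 3, unevenly by gene. Of 16 T cell markers 3 were in the table (Cd8b1, Cd4, Cd5), and their summed level was 1.34 to 9.75 FPKM in WT, 3.46 to 3.95 in HFD, 2.89 to 17.2 in HAPN and 5.78 to 12.1 in HSAPN. Of 12 NK cell markers 3 were in the table (Il2rb, Xcl1, Klrg1), with sums of 0.609 to 7.54, 2.95 to 3.68, 1.63 to 21.2 and 5.17 to 9.16 FPKM. HAPN replicate 3 had the highest sum of both lists, 1.41 and 2.31 times the next library. Cd8b1 was 8.51 FPKM there, 5.55 FPKM in WT replicate 3 and 3.81 FPKM in HSAPN replicate 2. Cd4 (4.17 and 4.06 FPKM) and Cd5 (4.47 and 4.27 FPKM) were about level in HAPN replicate 3 and HSAPN replicate 2. Of the NK cell genes, Xcl1 was 6.10 FPKM in HAPN replicate 3 and at most 0.675 FPKM elsewhere. The gaps were narrower for Il2rb (10.1 FPKM, against at most 6.10) and Klrg1 (4.91 FPKM, against at most 2.64). The defining T cell genes Cd3d, Cd3e and Cd3g and NK cell genes Ncr1, Klrb1c and Klrk1 were not in the table. The part of these cells in the values of the 5 genes was not tested.

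Other marker lists did not have their maximum in that library, apart from the dendritic cell gene Fscn1 (11.9 FPKM, against 2.99 to 9.58 FPKM elsewhere; 1 of 10 markers in the table). The macrophage sum (3 of 13 markers) was highest in library HFD 1=2 (82.9 FPKM). HAPN replicate 3 came second (59.7 FPKM, against 22.3 and 28.4 FPKM in HAPN replicates 1 and 2) and HSAPN replicate 2 came next (57.5 FPKM). C1qb made up most of the sum in this pair of libraries (51.9 and 49.1 FPKM), and Adgre1 was 6.48 and 6.99 FPKM. Cd163 was not raised in the pair (1.37 and 1.33 FPKM, against 0.942 to 4.63 FPKM elsewhere). The part of macrophages in the result was not tested. The mast cell sum (6 of 9 markers) was 5.51 FPKM in HAPN replicate 3 and 1.45 to 12.6 FPKM over all libraries. None of the 11 B and plasma cell markers or of the 10 endothelial markers was in the table. Smooth muscle markers checked the tissue label. Of 10 such markers 8 were in the table, and Acta2 (146 to 1607 FPKM) and Myh11 (15.5 to 236 FPKM) were detected in every library, while Tagln was only 0.279 to 3.32 FPKM. The sums were 686 to 2831 FPKM in WT, 232 to 877 in HFD, 271 to 526 in HAPN and 283 to 492 in HSAPN. Markers of adjoining tissue varied widely and were low in HAPN replicate 3, where the airway gene Bpifa1 was 2.81 FPKM (2.81 to 10735 over all libraries) and the adipocyte sum 47.7 FPKM (44.1 to 1420).

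**Figure D4:**
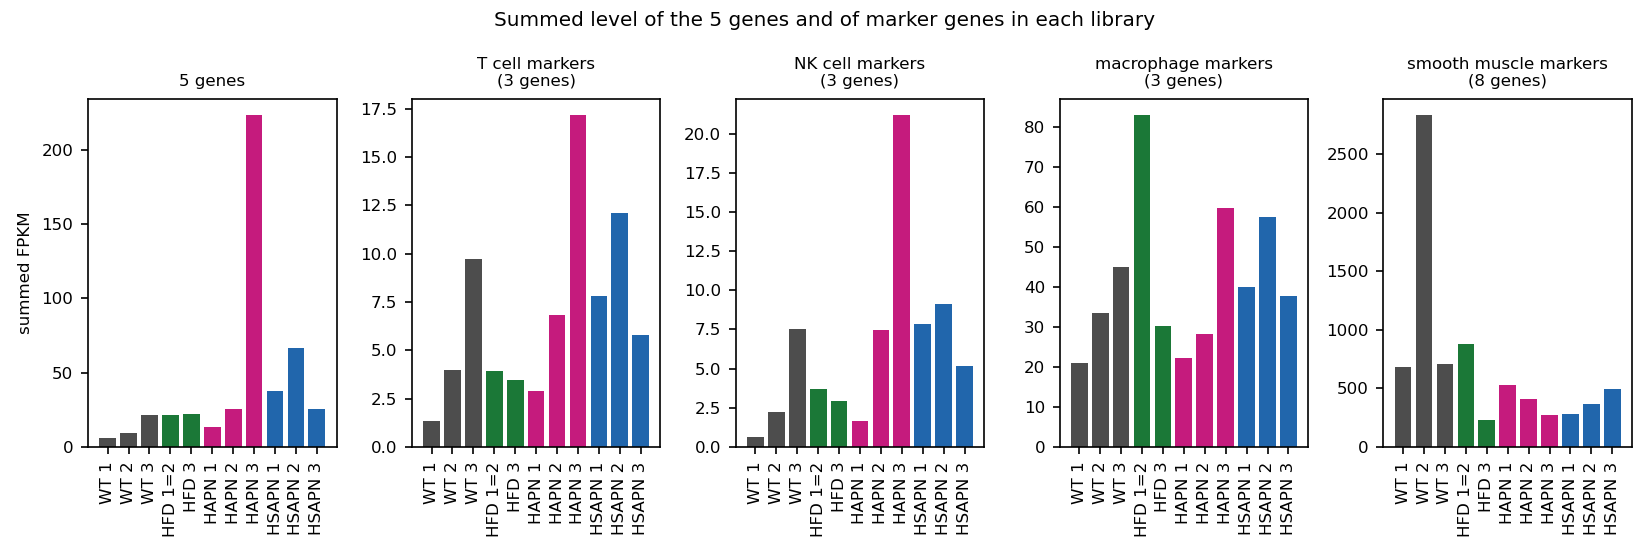
Summed FPKM of the 5 genes and of the T cell, NK cell, macrophage and smooth muscle markers in the table, as 1 bar per distinct library coloured by group (WT grey, HFD green, HAPN magenta, HSAPN blue). HAPN replicate 3 is the tallest bar for the 5 genes and for T and NK cell markers (17.2 and 21.2 FPKM), and not for macrophage or smooth muscle markers.

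Likeness between the 5 genes was measured as Pearson r of log2(FPKM + 1), a description in which all points share libraries. Over 11 libraries the 10 pairs ranged from 0.862 (Ubd and Igtp) to 0.979 (Igtp and Gbp6), with Spearman rho from 0.700 to 0.927. Without HAPN replicate 3 the range was 0.534 to 0.959, and without HSAPN replicate 2 as well it was 0.406 to 0.947. Igtp and Gbp6 stayed at 0.947 in those 9 libraries, while Ubd gave 0.440 with Igtp, 0.406 with Gbp6 and 0.409 with Gzmb. The Pearson r of Ubd with these 3 genes thus fell when the pair of highest libraries was left out. Its Spearman rho with them over 11 libraries was 0.700, 0.791 and 0.709. Ubd had only 0 to 18 reads in those 9 libraries, so counting error may also lower its r there.

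Of the tested genes, Gbp5 had the pattern most like the 5 genes (mean r 0.954, mean rho 0.878, n = 11 libraries). Batf2 (mean r 0.946), Gbp8 (0.930), Gbp4 (0.925), Slamf8 (0.918), Cd300e (0.916), Irf1 (0.912) and Mmp12 (0.898) followed. Without HAPN replicate 3 the mean r of these 8 genes was 0.710 (Mmp12) to 0.889 (Gbp5). All 8 were highest in HAPN replicate 3, and 5 of them were on the lists above. They were picked by likeness over libraries that include HAPN replicate 3, so their peak there follows largely from the choice. Slamf8 and Cd300e encode receptors of myeloid cells, and Mmp12 encodes macrophage elastase. Gene by gene, Tgtp1 was close to Cxcl10 (r 0.968, and 0.951 without both high libraries), Slamf8 to Ubd (0.944 and 0.830) and Gbp4 to Igtp (0.989 and 0.986). Batf2 was closest to Gbp6 (0.988 and 0.939), and Cd300e (0.962 and 0.919) and Prf1 (0.956 and 0.957) were closest to Gzmb.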

How the data were processed

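Aorta RNA was isolated with TRIzol and sequenced after directional NEB library preparation, per the labels' protocols. Tools listed in the submitters' processing notes are featureCounts 1.5.0-p3 and DESeq 1.8.3, with build GRCm38. The sources used here give no aligner, annotation or strand setting. The deposited values of the authors are FPKM per gene symbol for part of the transcriptome. Exonic lengths of GENCODE M21 returned whole reads (tolerance 0.1) for 95.8 to 97.1% of values up to 20 reads, at 15680000 to 17880000 reads per library, of which the table holds 12.0 to 17.6%. Read numbers in the text come from this step.

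The 1659 genes that reached 1 FPKM in 3 or more of the 11 libraries, all 5 members among them, were tested with limma-trend 3.58.1 in R 4.3.3 on log2(FPKM + 1), with 4 group means in 1 fit, 7 residual degrees of freedom and Benjamini-Hochberg adjustment. The code was tested on simulated data. Tables, motif searches and figures used Python 3.11.15, pandas 2.3.3, NumPy 2.4.6, SciPy 1.17.1 and matplotlib 3.10.9. The members and lists were chosen with earlier results of these data known. Named were the members, list genes passing the threshold in any comparison, up to 4 list genes of highest mean FPKM per list, the 8 genes most like the members and the 3 most like each, and the first 3 markers of a list. Fasl and markers beyond the first 3 of a list were named after their values were seen. Alternatives changed scaling, pseudocount, filter, libraries, block and test.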

Additional observations from a re-analysis of the deposited data

How the results depend on the processing

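The count of called list genes was 0 in each of the 6 comparisons with all libraries. It stayed 0 with median-ratio scaling, a pseudocount of 0.1, no filter, a filter of 5 FPKM, only the 2 groups compared, the identical HFD files as 2 libraries, limma-voom, and the replicate number as a block (replicate block, 0 in each comparison). With 1 library left out in turn, it ran from 0 to 2 in HSAPN against WT (2 without WT replicate 3) and was 0 throughout in the other 5. Replicate numbers did not pair the libraries: r of same-numbered deviations ran from -0.592 to 0.499 over 15 pairs, and in 8 of 30 checks a library correlated best with its own number. Of the 30 group differences of the 5 genes, 11 changed sign when some library was left out, 8 of them without HAPN replicate 3. With a pseudocount of 0.1, 1 changed sign (Ubd in HSAPN against HAPN, from -0.66 to 0.10) and low genes moved either way, as Cxcl10 in HFD against WT (from 0.61 to 1.27) and Ubd in HAPN against HFD (from 0.91 to 0.14). Depth limits Ubd most, with 0 to 18 reads in 9 libraries.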

Other observations

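Outside the members and lists, 7 tested genes also stood at least 2-fold higher in HAPN replicate 3 than in any other library. They were chosen after their values were seen and carry no test. The antibody segments Ighv1-34 (15.3 FPKM, 11.7 times the next library) and Igkv12-44 (46.1 FPKM, 2.67 times) were among them. So were Mmp12 (16.7 FPKM, 4.48 times), Smpdl3b (10.7 FPKM, 3.12 times), Cd300e (5.80 FPKM, 2.59 times), Treml4 (8.43 FPKM, 2.19 times) and Gdf15 (2.82 FPKM, 2.07 times). Mmp12, Cd300e and Treml4 are genes of macrophages and other myeloid cells. The summed macrophage markers in the table (Adgre1, C1qb and Cd163) were second highest there, at 59.7 FPKM against 22.3 and 28.4 FPKM in the other HAPN libraries and 82.9 FPKM in library HFD 1=2. Cd163 alone was not raised there (1.37 FPKM, against 1.31 and 1.38 FPKM in the other HAPN libraries).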
